A study of Mus musculus with 64 samples.

Results

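The genes described here encode the proteasome, its assembly factors and its regulators, read in cultured mouse natural killer (NK) cells. They were chosen by symbol (Psma, Psmb, Psmc, Psmd, Psme, Psmf or Psmg followed by a number) and by a mean of at least 5 CPM (counts scaled to a library of 1000000) over the 64 libraries. Of the 36273 genes in the count table, 48 carried such a symbol and 46 passed the level. Psmb11 and Psma8 lay below it, with mean levels of 0.0228 and 0.219 CPM, and the lowest members were Psmg1 and Psmf1, with 16.4 and 24.2 CPM. All 46 members passed the low-count filter of the test, so none was left out of any comparison.

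NK cells from mouse spleen had been cultured for 5 days in low-dose IL-2 and IL15:IL15Ra and were then kept for 5 hours in 1 of 3 conditions: with PGE2 (prostaglandin E2) at 100 ng/ml, with CM, the medium conditioned by control BRAFV600E cells that make PGE2, or untreated. Each condition was read with the activating receptor NK1.1 engaged for the last 4 of the 5 hours (stimulated) and without it (unstimulated). The cells came from 3 genotypes: EP2/EP4KO (GzmbCrePtger2-/-Ptger4fl/fl), EP2KO (Ptger2-/-Ptger4fl/fl) and WT (C57BL/6J). EP2/EP4KO and EP2KO thus share the deletion of Ptger2, which encodes the PGE2 receptor EP2, and the floxed alleles of Ptger4, which encodes EP4; the Cre of EP2/EP4KO cells is named for Gzmb, the granzyme B gene, so Ptger4 can be lost only where that driver was active. The 18 groups hold 3 libraries each for EP2/EP4KO and 4 each for EP2KO and WT, except that unstimulated WT cells with PGE2 have 2 libraries. The labels do not say whether replicates came from separate animals or cultures, so a p-value measures the spread between these libraries, which may be technical.

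The proteasome degrades proteins tagged with ubiquitin. Its 20S core is a barrel of alpha and beta rings; a 19S cap of ATPase and non-ATPase subunits recognises, unfolds and feeds in the substrate, and PA28 or PA200 activators can take the place of the cap. In the core, the catalytic subunits Psmb5, Psmb6 and Psmb7 can be replaced by Psmb8, Psmb9 and Psmb10, which form the immunoproteasome; lymphocytes express these 3 genes constitutively, interferon raises them, and the resulting particle favours peptides that fit MHC class I. Transcription of the standard subunits is driven by NFE2L1, a factor that binds antioxidant response elements, whereas the immunoproteasome genes follow interferon signalling.

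Promoter sequences from RefSeq (GRCm38.p6) are shown for 5 members on which the results below turn: the immunoproteasome genes Psmb8 and Psmb10, the catalytic gene Psmb5, and Psme3 and Psmd12, which rose with stimulation. Each is written 5′ to 3′ on the strand of the gene, and capitals mark a match to one of the motifs searched. The Psmb8 stretch is chr17:34198088-34198117 on the plus strand, 107 to 78 bases before the start, inside an annotated 5′ exon, and its capitals are a gamma-interferon activation site (GAS) motif, TTCNNNGAA.
Psmb8: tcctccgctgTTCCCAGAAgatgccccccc
The Psmb10 stretch is chr8:105938445-105938642 on the minus strand, 250 to 53 bases before the start, and holds none of the motifs.
Psmb10: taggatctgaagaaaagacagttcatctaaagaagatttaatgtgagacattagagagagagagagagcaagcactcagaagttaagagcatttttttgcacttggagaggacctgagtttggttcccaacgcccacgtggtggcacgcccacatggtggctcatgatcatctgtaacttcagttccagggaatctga
The Psmb5 stretch is chr14:54618023-54618245 on the minus strand, 250 to 28 bases before the start, and its capitals are an antioxidant response element core, TGACNNNGC.
Psmb5: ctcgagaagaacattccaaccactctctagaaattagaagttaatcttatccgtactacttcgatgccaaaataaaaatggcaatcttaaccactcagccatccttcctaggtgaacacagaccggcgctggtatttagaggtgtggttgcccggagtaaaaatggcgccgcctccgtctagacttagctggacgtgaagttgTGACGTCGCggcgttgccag
The Psme3 stretch is chr11:101315963-101316212 on the plus strand, 250 to 1 bases before the start, and holds none of the motifs.
Psme3: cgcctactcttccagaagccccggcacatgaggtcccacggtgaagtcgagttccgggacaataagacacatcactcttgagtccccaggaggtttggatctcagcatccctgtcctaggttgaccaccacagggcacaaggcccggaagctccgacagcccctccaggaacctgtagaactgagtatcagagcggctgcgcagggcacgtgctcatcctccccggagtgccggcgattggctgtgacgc
The Psmd12 stretch is chr11:107479278-107479483 on the plus strand, 250 to 45 bases before the start, and its capitals are again TGACNNNGC, read on the other strand.
Psmd12: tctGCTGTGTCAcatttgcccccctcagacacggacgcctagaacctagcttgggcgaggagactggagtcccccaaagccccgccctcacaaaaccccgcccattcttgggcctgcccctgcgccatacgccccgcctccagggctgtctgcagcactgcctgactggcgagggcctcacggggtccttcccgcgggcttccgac

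The motifs were searched on both strands of windows from 250 bases before to 50 bases after each annotated start, 42 windows of 39 members and 32851 windows of all genes. TGACNNNGC stood in 6 of the 42 member windows (14.3%: Psmb5, Psmb6, Psmc6, Psmd12, Psmd9 and Psme4), against 12.4% of all windows. TTCNNNGAA stood in 3 (7.14%: Psmb8, Psmd2 and Psmg1), against 8.3% of all windows. The interferon-stimulated response element stood in 5 (11.9%: Psmb3, Psmd4, Psmd9, Psme1 and Psmg4), against 3.44%, and the cAMP response element TGACGTCA in 0 of 42, against 1.79%. The PGE2 receptors EP2 and EP4 signal through cAMP. A match is a run of letters and not a shown binding site.

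Library totals were between 753973 and 1693750 counts (median 1256163), and a library held between 4755 and 13670 counts of the 46 members together. Members took up between 0.637% (unstimulated WT cells with CM) and 0.808% (stimulated EP2/EP4KO cells with PGE2) of a library as group means. Levels below are CPM scaled by the trimmed mean of M-values (TMM), and fold changes are log2 values with their standard error from edgeR's quasi-likelihood test, adjusted by Benjamini-Hochberg over 10723 genes; a gene is called at an adjusted p under 0.05. The counts come from the 3′ ends of transcripts, so a gene's level is compared between groups and not with another gene's level. Ratios of genes below are likewise read only as differences between groups. NK markers were present in every library (8 of 8 listed genes tested, 2962 to 10575 CPM summed). Counts of Ptger2 and Ptger4 were present in every library of all 3 genotypes, with medians of 5.92 and 55.0 CPM in EP2/EP4KO, 6.49 and 27.7 CPM in EP2KO and 7.15 and 25.1 CPM in WT; the deleted stretches are not named in the labels, and a 3′ count outside them does not check the deletion. In bulk samples, fewer cells of a type and less RNA per cell cannot be told apart.

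In untreated WT cells, stimulation through NK1.1 lowered all 3 immunoproteasome genes and raised 8 of 17 genes of the 19S cap and 2 of 4 activator genes. Of the core genes only Psma4 and Psma7 were called higher. Over all members the share called higher in WT was near that of all genes. In untreated WT cells, 12 of the 46 members (26.1%) were called higher in stimulated than in unstimulated cells, against 23.0% of all genes tested, and 5 (10.9%) were called lower, against 19.1%. In EP2KO cells 18 (39.1%) were called higher, against 18.4% of all genes, and 3 (6.52%) lower, against 15.0%. In EP2/EP4KO cells 16 (34.8%) were called higher, against 16.4%, and 2 (4.35%) lower, against 13.8%. The median log2 fold change of the members was 0.10 in WT, 0.28 in EP2KO and 0.28 in EP2/EP4KO cells, beside medians of 0.01 over all genes in each genotype.

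The 3 genotypes have separate untreated libraries, and 11 members were called higher in all 3: Psma4, Psma7, Psmc1, Psmc5, Psmc6, Psmd1, Psmd2, Psmd7, Psmd11, Psmd12 and Psme3. Leaving out 1 library ended the call of Psma4 in 6 of 8 fits in EP2KO and in 6 of 6 in EP2/EP4KO cells (0.22 to 0.31), of Psmc5 in 2 of 8 in WT and 3 of 6 in EP2/EP4KO, of Psma7 in 2 of 6 in EP2/EP4KO and of Psmd7 in 1 of 8 in EP2KO cells, and no other of these calls. With no low-count filter, 6 of the 11 were called in all 3 genotypes (Psmd1, Psmd2, Psmd7, Psmd11, Psmd12 and Psme3). The 11 are 23.9% of the members, and 13.2% of all genes were called higher in all 3. Psmb8 and Psmb9 were called lower in all 3 genotypes (4.35% of members, against 8.84% of all genes).

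**Figure D1:**
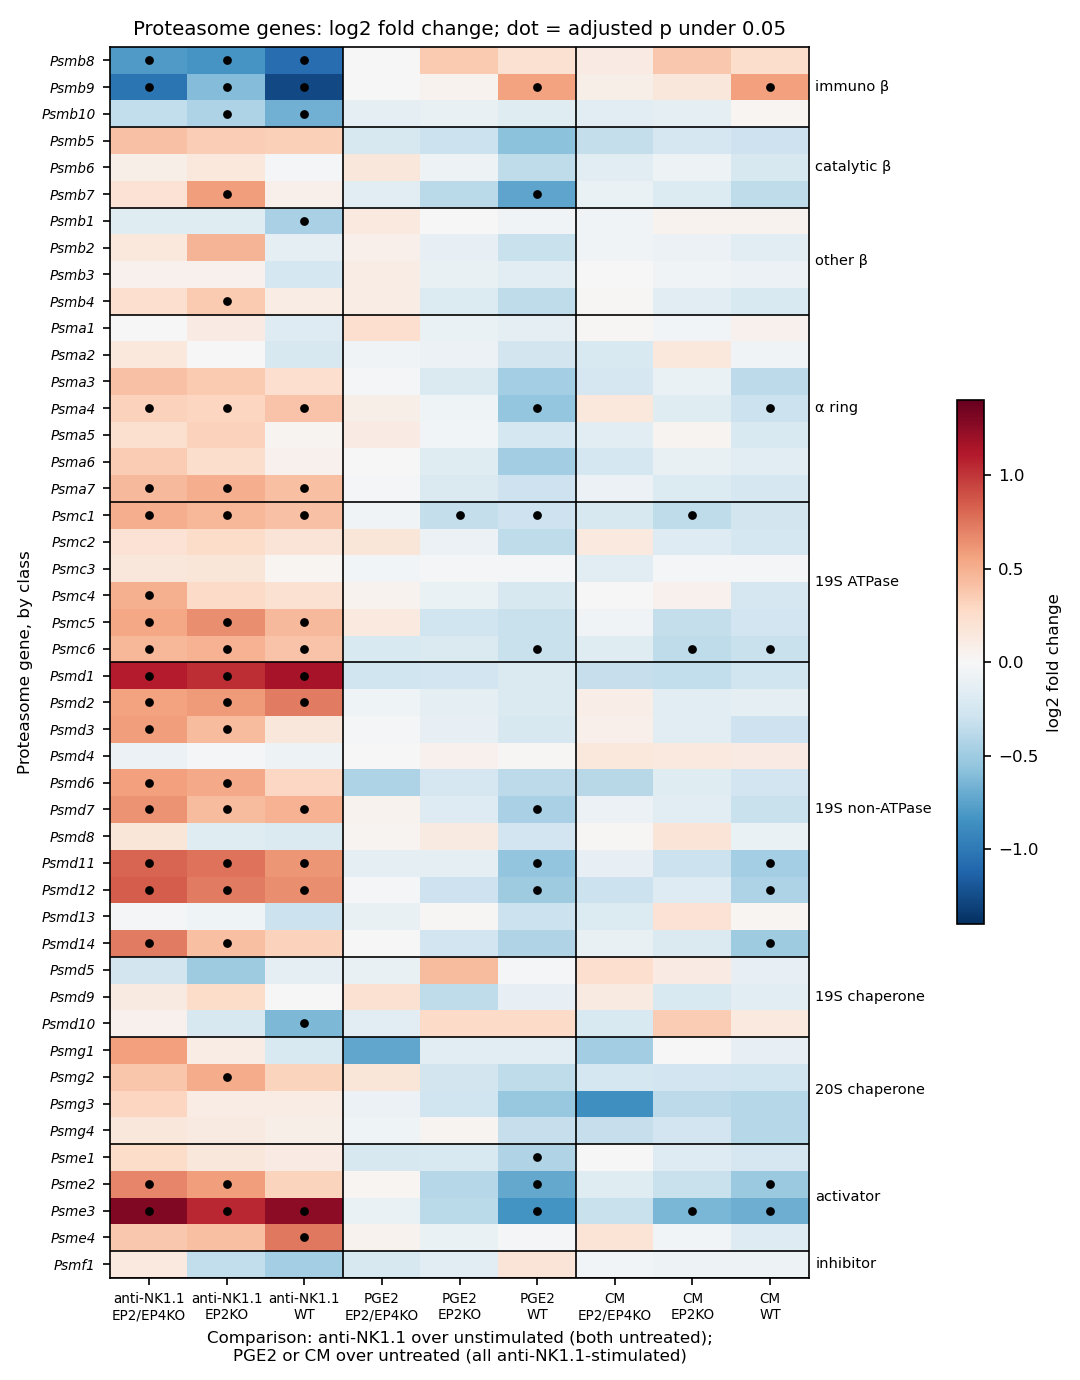
Log2 fold changes of the 46 members (rows, by class) in 9 comparisons (columns): stimulated over unstimulated untreated cells, and PGE2 or CM over untreated among stimulated cells, each in EP2/EP4KO, EP2KO and WT; red is higher, blue lower, and a dot marks an adjusted p under 0.05. Psmb8 and Psmb9 are blue with dots in all 3 stimulation columns, where Psme3, Psmd1, Psmd11 and Psmd12 are red with dots; the PGE2 column of WT holds 11 dots and that of EP2/EP4KO holds 0.

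Psmb9 (chr17:34181987-34187764, minus strand, GRCm38), which replaces Psmb6, fell most of the 3 immunoproteasome genes in WT. Its level was 56.4, 45.3, 54.9 and 58.4 CPM in the 4 stimulated libraries, against 147, 107, 119 and 144 CPM in the 4 unstimulated ones. Every stimulated library was thus below every unstimulated one, and the log2 fold change was -1.27 ± 0.17 (SE; adjusted p = 4.8e-09). In EP2/EP4KO cells Psmb9 had 62.7, 79.4 and 55.2 CPM with stimulation, against 136, 151 and 115 CPM without (-1.02 ± 0.19, adjusted p = 1.13e-05), again with no overlap. In EP2KO cells it had 59.4, 59.7, 59.8 and 116 CPM, against 101, 108, 130 and 109 CPM. There the fourth stimulated library stood among the unstimulated ones: the log2 fold change was -0.60 ± 0.16 (adjusted p = 0.00241) with it and -0.97 without it (adjusted p = 1.5e-06). The exons of Psmb9 overlap those of Tap1 by 212 bases, so their counts may not be fully separate.

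Psmb8 (chr17:34197721-34201454, plus strand), the replacement of Psmb5, had 185, 128, 193 and 220 CPM in stimulated WT libraries, against 429, 349, 286 and 448 CPM in unstimulated ones. Its exons share 498 bases with Gm20496, an antisense gene. The groups did not overlap (log2 fold change -1.06 ± 0.16, adjusted p = 2.32e-07). The fall was also called in EP2KO cells (163, 142, 183 and 221 CPM, against 251, 331, 355 and 321 CPM; -0.83 ± 0.16, adjusted p = 3.96e-05). It was called as well in EP2/EP4KO cells (190, 214 and 192 CPM, against 331, 426 and 278 CPM; -0.79 ± 0.19, adjusted p = 0.000584). In all 3 genotypes every stimulated library lay below every unstimulated one.

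Psmb10 (chr8:105935735-105938444, minus strand), the replacement of Psmb7, had the smallest change of the 3 in WT. Stimulated WT libraries had 121, 75.5, 134 and 110 CPM, against 179, 167, 166 and 188 CPM in unstimulated ones (-0.67 ± 0.13, adjusted p = 1.61e-05), and stimulated EP2KO libraries had 107, 104, 113 and 148 CPM, against 158, 159, 159 and 159 CPM (-0.43 ± 0.13, adjusted p = 0.00643). In EP2/EP4KO cells the values were 142, 129 and 101 CPM, against 153, 168 and 153 CPM. These groups did not overlap either, but the log2 fold change of -0.35 ± 0.15 missed the threshold (adjusted p = 0.0612); with the replicate number as a block, which pairs these libraries, it passed (-0.35, adjusted p = 0.0247).

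**Figure D2:**
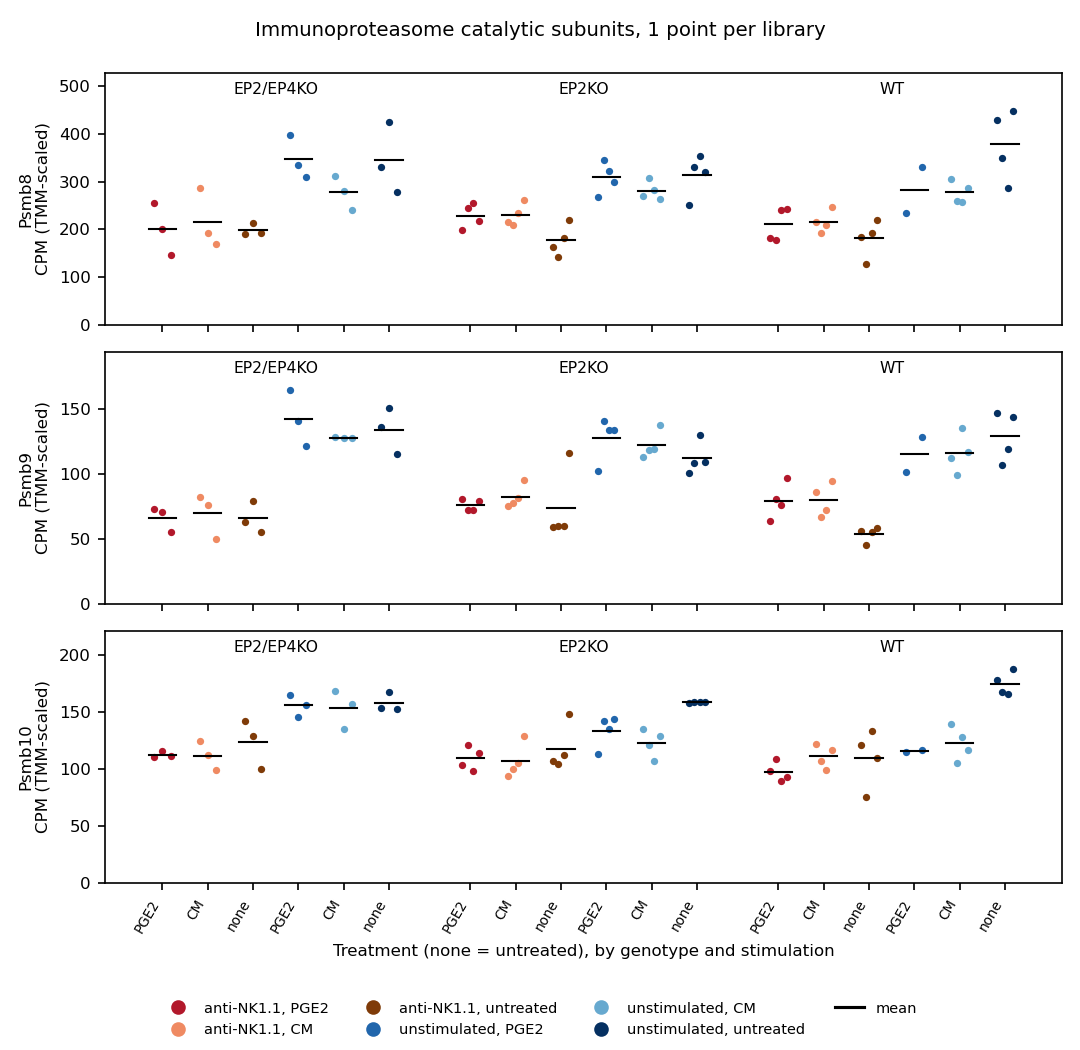
TMM-scaled CPM of Psmb8, Psmb9 and Psmb10 in each of the 64 libraries (points) with group means (bars), by genotype, stimulation and treatment. Stimulated groups lie left of unstimulated ones within a genotype; Psmb9 is below 100 CPM in every stimulated library except the fourth untreated EP2KO library (116 CPM).

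None of the constitutive catalytic genes was called lower. Psmb5, Psmb6 and Psmb7, which carry the chymotrypsin-like, caspase-like and trypsin-like activities, had log2 fold changes of 0.33, -0.03 and 0.07 in WT, none of them called (adjusted p = 0.221, 0.932 and 0.835). In EP2KO cells Psmb7 was called higher (0.58 ± 0.23, adjusted p = 0.0484), a call that ended in 7 of the 8 fits that left out 1 library (0.48 to 0.65). The other core genes split. Psma4 and Psma7, of the alpha ring, rose in WT (0.40 ± 0.11 and 0.42 ± 0.12, adjusted p = 0.00163 and 0.00285), while the other 5 alpha genes were not called, Psma2 being lowest at -0.23. Psmb1, a non-catalytic beta gene, was called lower in WT (-0.46 ± 0.18, adjusted p = 0.0309), a call that ended without the fourth unstimulated (-0.42) or the first (-0.40) or second (-0.34) stimulated library and stood at -0.69 without the fourth stimulated one. It had -0.17 in EP2KO and -0.17 in EP2/EP4KO cells, neither called, and the highest of that class, Psmb4, had 0.10.

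Within the 19S cap, 3 of 6 ATPase genes and 5 of 11 non-ATPase genes were called higher in WT and 0 lower. In EP2KO the counts called higher were 3 and 8, and in EP2/EP4KO 4 and 8. The shares of all genes called higher were 23.0% in WT, 18.4% in EP2KO and 16.4% in EP2/EP4KO, and 19.1% were called lower in WT. Psmd1, a scaffold subunit at the base of the cap (chr1:86064387-86139151, plus strand), rose most. It had 148, 137, 169 and 129 CPM in stimulated WT libraries, against 69.8, 63.0, 73.4 and 55.7 CPM in unstimulated ones. The lowest stimulated library was above the highest unstimulated one (1.15 ± 0.17, adjusted p = 1.12e-07), a 2.22-fold rise, and the rise was 2.05-fold in EP2KO and 2.14-fold in EP2/EP4KO cells. The exons of Psmd1 share 301 bases with Gm21972 on the same strand and 252 with Htr2b on the other. Psmd2, the other large scaffold subunit of the base, had 217, 202, 173 and 176 CPM, against 117, 108, 112 and 127 CPM (0.72 ± 0.13, adjusted p = 1.12e-05).

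Psmd11 and Psmd12 encode subunits of the lid that surrounds the deubiquitinase. Psmd11 (chr11:80428615-80473248, plus strand) had 169, 153, 240 and 230 CPM in stimulated WT libraries, against 140, 112, 116 and 144 CPM (0.62 ± 0.14, adjusted p = 0.000149). Psmd12 (chr11:107479484-107504362, plus strand) had 193, 191, 191 and 283 CPM, against 144, 141, 119 and 141 CPM (0.65 ± 0.14, adjusted p = 0.000167). Neither gene's groups overlapped in any of the 3 genotypes. Psmd14, the deubiquitinase itself, was not called in WT and was called higher in EP2KO (0.42, ending in 6 of 8 fits that left out a library) and EP2/EP4KO cells (0.73). Of the ATPase genes, Psmc1, Psmc5 and Psmc6 rose in WT by 0.41, 0.45 and 0.40 on the log2 scale; Psmc3 was lowest, at 0.02. The Psmc5 call in WT ended without the third (0.31) or the fourth (0.35) stimulated library. At the low end of the non-ATPase genes stood Psmd13, at -0.30, which was not called.

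Among the activators, Psme3 rose most of all 46 members in WT, EP2KO and EP2/EP4KO cells. It encodes PA28 gamma, the nuclear activator that acts without ubiquitin. Psme3 (chr11:101316213-101323537, plus strand) had 143, 129, 214 and 180 CPM in stimulated WT libraries, against 62.5, 72.6, 78.1 and 66.5 CPM in unstimulated ones, with no overlap (1.25 ± 0.16, adjusted p = 8.67e-10). The rise was 1.06 ± 0.15 in EP2KO cells (179, 170, 207 and 142 CPM, against 93.8, 86.1, 79.4 and 75.4 CPM) and 1.30 ± 0.18 in EP2/EP4KO cells (181, 173 and 162 CPM, against 59.1, 63.8 and 86.7 CPM). Psme1 and Psme2, which form the interferon-inducible PA28 of the immunoproteasome, differed from each other: Psme1 was called in none of the genotypes (0.11, 0.16 and 0.25 in WT, EP2KO and EP2/EP4KO), whereas Psme2 was called higher in EP2KO (0.59) and EP2/EP4KO cells (0.68, ending without the third unstimulated library at 0.54) and not in WT (0.31, adjusted p = 0.154). Psme4, which encodes PA200, was called higher in WT (0.74 ± 0.19, adjusted p = 0.00106), with values between 75.0 and 160 CPM in stimulated and between 59.6 and 83.8 CPM in unstimulated libraries that overlapped; without the second stimulated library it was 0.48 (adjusted p = 0.046).

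**Figure D3:**
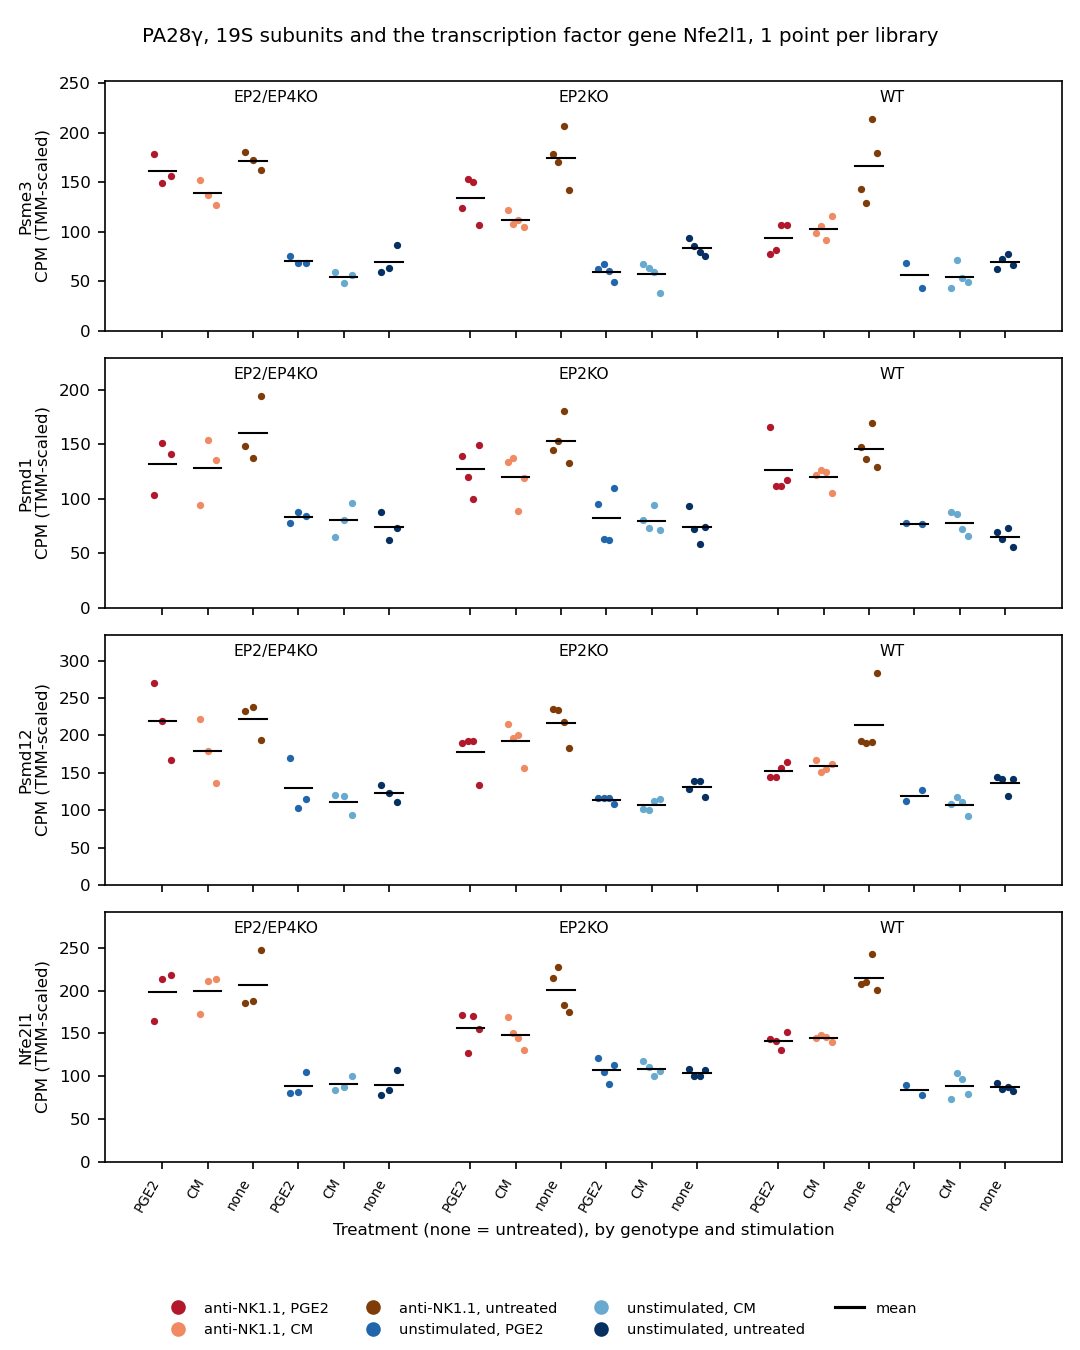
TMM-scaled CPM of Psme3, Psmd1, Psmd12 and of Nfe2l1, the gene of a transcription factor of proteasome subunits, in each of the 64 libraries (points) with group means (bars). Untreated stimulated libraries lie above untreated unstimulated ones in all 3 genotypes for each gene; in WT, Psme3 and Nfe2l1 are lower in the stimulated libraries with PGE2 or CM than in the stimulated untreated ones.

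Few assembly genes were called. Of the 19S chaperones, Psmd10 (gankyrin) was called lower in WT (29.7, 28.8, 42.1 and 50.6 CPM with stimulation, against 66.1, 56.6, 54.3 and 54.8 CPM without; -0.63 ± 0.22, adjusted p = 0.0168), a call that ended without the second stimulated library (-0.56, adjusted p = 0.0511), and Psmd9 was highest, at 0.01. Of the 20S chaperones none was called in WT: Psmg2, at 0.31, was highest and Psmg1, at -0.21, lowest, and Psmg2 was called in EP2KO cells (0.52). Psmf1, the inhibitor PI31, had -0.48 (adjusted p = 0.0892). B cell markers moved with stimulation: 1 of 7 listed genes was tested, Ighm, and the summed level was 37.5 to 61.9 CPM in stimulated and 66.7 to 94.7 CPM in unstimulated WT libraries, while Cd79a was near 0 (mean over all libraries 0.0329 CPM). The part of B cell RNA in the fall of Psmb8, Psmb9 and Psmb10 was not tested.

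The size of the stimulation response was not shown to depend on genotype. No member was called in the comparison of the responses of EP2KO and WT cells (0 of 46 by edgeR, 1 at an unadjusted p under 0.05, and 0 by DESeq2, beside 0% of all genes). Psmb9 had the smallest p there (difference 0.66, adjusted p = 0.96). None was called between EP2/EP4KO and WT either (0 by edgeR, 1 at an unadjusted p under 0.05, and 0 by DESeq2, beside 0.00933% of all genes). The shares of all genes, here and below, are shares called at the adjusted p. At an unadjusted p under 0.05 were 460 of all 10723 genes for EP2KO and 378 for EP2/EP4KO.

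In stimulated WT cells, PGE2 lowered 3 of 4 activator genes, 5 of 17 genes of the 19S cap and the core genes Psma4 and Psmb7, and raised Psmb9. The call rule gave 1 of 46 members higher (2.17%), against 6.00% of all genes, and 10 lower (21.7%), against 9.63%. The median of the members was -0.29, beside -0.05 over all genes, and 41 of 46 had a negative sign. These signs come from the same libraries and are not separate observations. With the replicate number as a block, which pairs these libraries, 18 members were called lower and the same count of 1 higher; the 8 added were Psma3, Psma6, Psma7, Psmb4, Psmb5, Psmc2, Psmd6 and Psmd14. With CM, 1 of 46 members was called higher (2.17%), against 6.20% of all genes, and 7 lower (15.2%), against 9.22%. Without the fourth untreated library 5 members were called with PGE2 and 2 with CM, and without the second untreated one 17 and 8. The sum of the NK marker list was lower too. Its 8 genes summed to 4065 to 5048 CPM with PGE2 and 4089 to 5300 CPM with CM, against 5391 to 10575 CPM in untreated libraries. This sum is weighted to its highest genes, here and below: Gzmb averaged 2125, Nkg7 1184 and Klrk1 832 CPM over all libraries, and Tbx21 73.3 CPM. It was also higher in stimulated than in unstimulated untreated WT cells (means 7837 and 5797 CPM), so it is not a count of NK cells. The part of these genes in the results was not tested.

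Psme3 fell most. It had 78.0, 81.4, 107 and 107 CPM with PGE2, against 143, 129, 214 and 180 CPM untreated, without overlap (-0.83 ± 0.15, adjusted p = 2.85e-05). With CM it had 98.9, 106, 92.2 and 116 CPM (-0.69 ± 0.15, adjusted p = 0.000551), also below every untreated library. PGE2 and CM share the untreated libraries here and in each comparison below, so their values are given side by side and not as independent results.

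The other PA28 genes followed in part. Psme1 had 260, 218, 258 and 249 CPM with PGE2, against 331, 297, 355 and 336 CPM untreated (-0.42 ± 0.11, adjusted p = 0.00299); with CM its log2 fold change was -0.24 (adjusted p = 0.125). Psme2 had 143, 167, 196 and 183 CPM with PGE2, against 228, 164, 336 and 405 CPM untreated. These overlapped, and the call (-0.72 ± 0.18, adjusted p = 0.0026) ended without the fourth untreated library (-0.46, adjusted p = 0.0858). The CM call of Psme2 (-0.52, adjusted p = 0.0338) ended in 5 of the 8 fits that left out a library (-0.68 to -0.27).

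In the alpha ring, Psma4 (chr9:54950790-54958030, plus strand) fell in every PGE2 library: 160, 161, 164 and 163 CPM, against 241, 225, 241 and 238 CPM untreated. The PGE2 libraries were close to each other and all below the untreated ones (-0.55 ± 0.11, adjusted p = 8.88e-05). With CM, Psma4 had 208, 192, 185 and 184 CPM (-0.30 ± 0.11, adjusted p = 0.0421), and this call ended whichever of the 8 libraries was left out (-0.31 to -0.26). The exons of Psma4 share 114 bases with AY074887 on the opposite strand, so their counts may not be fully separate.

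In the 19S cap, Psmd11 had 138, 119, 144 and 136 CPM with PGE2 and 130, 127, 136 and 174 CPM with CM, against 169, 153, 240 and 230 CPM untreated (-0.56, adjusted p = 0.00185, and -0.48, adjusted p = 0.00813). The PGE2 libraries did not overlap the untreated ones, and the fourth CM library did; the CM call ended in 3 of 8 fits that left out a library (-0.60 to -0.37). Psmd12 had 144, 145, 157 and 164 CPM with PGE2 and 167, 151, 156 and 162 CPM with CM, against 193, 191, 191 and 283 CPM untreated. Its groups did not overlap, but both calls (-0.49, adjusted p = 0.0103, and -0.43, adjusted p = 0.0272) ended without the fourth untreated library (-0.30 and -0.24); the CM call also ended without the first, the second or the third CM library. Psmd7, a lid subunit beside the deubiquitinase, was called lower with PGE2 (-0.45, adjusted p = 0.00914), as were the ATPase genes Psmc1 (-0.29, adjusted p = 0.0474) and Psmc6 (-0.31, adjusted p = 0.0413); these calls ended in 2, 7 and 6 of 8 fits that left out a library. Psmd14 was called with CM (-0.50, adjusted p = 0.0188), ending in 4 of 8 such fits. Psmd1, which rose most of the 19S genes with stimulation, was not called with PGE2 (-0.20, adjusted p = 0.468) or CM (-0.28, adjusted p = 0.273).

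None of the immunoproteasome genes was called lower with PGE2 or CM in stimulated WT cells, and Psmb9 was called higher. Psmb9 had 63.4, 80.6, 75.9 and 96.7 CPM with PGE2 and 86.0, 66.6, 72.3 and 94.6 CPM with CM, against 56.4, 45.3, 54.9 and 58.4 CPM in untreated libraries. Every treated library was above every untreated one (0.56 ± 0.17, adjusted p = 0.0168 with PGE2, and 0.57 ± 0.17, adjusted p = 0.0142 with CM). Each call ended without the fourth treated library (0.48 and 0.48, adjusted p = 0.0804 and 0.0692). The treated levels were still below the 107 to 147 CPM of unstimulated untreated libraries. Psmb8 had log2 fold changes of 0.22 with PGE2 and 0.25 with CM, and Psmb10 of -0.17 and 0.03, none of them called.

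The constitutive catalytic genes had negative values in stimulated WT cells. Psmb7 was called lower with PGE2 (84.9, 83.9, 131 and 138 CPM, against 126, 117, 213 and 275 CPM; -0.74 ± 0.24, adjusted p = 0.0247), with groups that overlapped, and the call ended in 4 of 8 fits that left out a library (-0.87 to -0.44; -0.44 without the fourth untreated library). The exons of Psmb7 share 405 bases with Nek6 on the opposite strand. Psmb5 had 36.0, 54.0, 62.3 and 58.0 CPM with PGE2, against 43.4, 46.0, 113 and 112 CPM (-0.57, adjusted p = 0.073, and 0.0143 with the replicate block). Psmb6 had -0.36 (adjusted p = 0.267). The stimulated untreated WT libraries were not alike in these genes: the third and the fourth had more than the first and the second for Psmb5, Psmb6, Psmb7, Psme2 and Psmd14, and less for Psme4, genes picked after their values were seen. The TMM factors of these 4 libraries were 0.987, 1.00, 0.894 and 0.882, and their totals 1339949, 1400040, 1231401 and 1465590 counts. Whether either has a part in the difference was not tested. With PGE2 too, the third and the fourth libraries had more than the first and the second for Psmb5, Psmb6, Psmb7 and Psme2.

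**Figure D4:**
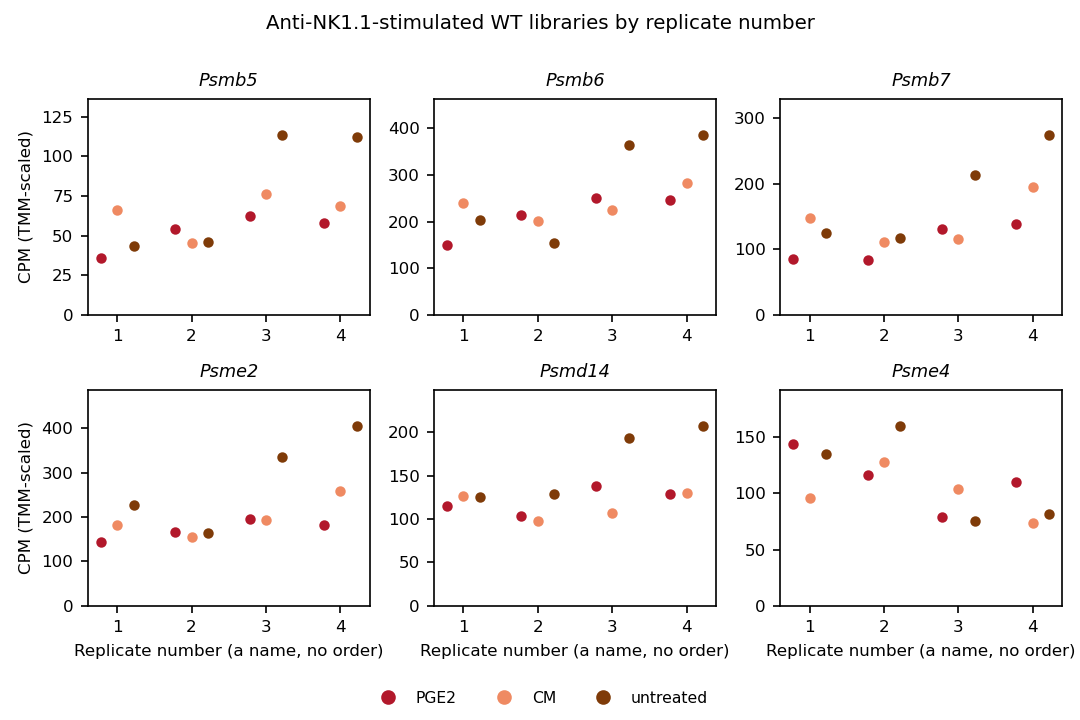
TMM-scaled CPM of 6 members in the stimulated WT libraries, by replicate number, for PGE2, CM and untreated cells. For Psmb5, Psmb6, Psmb7, Psme2 and Psmd14 the untreated libraries 3 and 4 stand above untreated libraries 1 and 2, and for Psme4 below them. PGE2 libraries 3 and 4 also stand above 1 and 2 for genes that include Psmb5, Psmb6, Psmb7 and Psme2.

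CM and PGE2 were also compared directly in stimulated WT cells, and 0 of 46 members were called by edgeR (1 at an unadjusted p under 0.05, 0 by DESeq2), beside 0.00933% of all genes. Psma4 had the smallest p, with a log2 difference of 0.25 (CM over PGE2). Of all 10723 genes, 491 had an unadjusted p under 0.05 in this comparison.

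In unstimulated WT cells, both treatments lowered Psmb10 and the assembly chaperone gene Psmg2. With PGE2, 0 members were called higher, against 1.91% of all genes, and 2 (4.35%) lower, against 1.05%. Psmb10 had 115 and 116 CPM in the 2 PGE2 libraries, against 179, 167, 166 and 188 CPM untreated (-0.60 ± 0.16, adjusted p = 0.0206), and Psmg2, a 20S assembly chaperone, had 32.0 and 33.9 CPM, against 48.7, 66.2, 41.9 and 59.0 CPM (-0.71, adjusted p = 0.0338). Neither gene's groups overlapped. Psmb8 had -0.42 and Psmb9 -0.17, neither called. The Psmb10 call ended without the fourth untreated library (-0.57, adjusted p = 0.057) or either PGE2 library, and the Psmg2 call ended in 4 of 6 such fits (-0.82 to -0.60 over all 6).

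With CM, 0 members were called higher, against 4.55% of all genes, and 5 (10.9%) lower, against 3.68%. The median of the members was -0.30, beside 0.01 over all genes, and 42 of 46 had a negative sign. All members were read in the same libraries, so their signs are not separate observations. The count of called members was 3 without the fourth untreated or the first CM library. Psmb10 had 140, 106, 129 and 117 CPM, against 179, 167, 166 and 188 CPM untreated (-0.51, adjusted p = 0.00685). Psmg2 had 37.0, 29.7, 37.0 and 23.7 CPM (-0.77, adjusted p = 0.00131), and Psme2 had 128, 140, 155 and 138 CPM, against 254, 215, 185 and 256 CPM (-0.70, adjusted p = 0.01). Psmd14 (-0.56, adjusted p = 0.0238) and Psmd7 (-0.45, adjusted p = 0.0241) were called too, and their calls ended in 4 and 2 of 8 fits that left out a library. Every CM library lay below every untreated one for Psmb10, Psmg2, Psme2, Psmd14 and Psmd7. The same held for some members that were not called, such as Psmg1 and Psmb2, and the share over all genes was not counted. The B cell list summed to 33.0 and 44.1 CPM with PGE2 and 42.4 to 55.7 CPM with CM, against 66.7 to 94.7 CPM untreated, and the NK list to 3465 and 4028 CPM with PGE2 and 3175 to 3748 CPM with CM, against 5453 to 6292 CPM; their part in these results was not tested.

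Whether the effect of a treatment differed between stimulated and unstimulated WT cells was tested as an interaction. For PGE2, 0 of 46 members were called by edgeR (7 at an unadjusted p under 0.05, 0 by DESeq2), beside 1.31% of all genes. For CM, 0 were called (6 at an unadjusted p under 0.05, and 3 by DESeq2), beside 2.19%. Of all 10723 genes, 1315 had an unadjusted p under 0.05 for PGE2 and 1830 for CM. Psmb9, Psmb8 and Psmb10 had the smallest p of the members for CM: their log2 fold changes were higher in stimulated than in unstimulated cells by 0.74, 0.70 and 0.54 (adjusted p = 0.0763, 0.0877 and 0.101). With the replicate block, edgeR called Psmb9 and Psmb8 for PGE2 (adjusted p = 0.0373 and 0.036). For CM it called Psmb9, Psmb8 and Psmb10 (adjusted p = 0.00772, 0.00381 and 0.0274). The replicate numbers were not read as pairs in all of these groups, so these calls are uncertain.

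In EP2KO cells, which lack EP2 and keep EP4, the shares of members called were near or below those of all genes. In stimulated cells with PGE2, 0 members were called higher, against 3.39% of all genes, and 1 (2.17%) lower, against 3.90%: Psmc1, an ATPase of the cap, which had 275, 240, 247 and 223 CPM, against 301, 291, 385 and 263 CPM (-0.33, adjusted p = 0.0321). Those groups overlapped, and the call ended in 6 of 8 fits that left out a library. With CM, 0 were called higher, against 4.50%, and 3 (6.52%) lower, against 5.91%. Psme3 had 122, 108, 112 and 105 CPM with CM, against 179, 170, 207 and 142 CPM (-0.64, adjusted p = 0.00165), without overlap. Psmc1 (-0.35, adjusted p = 0.0148) and Psmc6 (-0.35, adjusted p = 0.0237) were the others; their calls ended in 3 and 6 of 8 such fits. With PGE2, Psme3 had 124, 153, 150 and 107 CPM (-0.38, adjusted p = 0.114). Psmb8 had positive values that were not called (0.37 with PGE2, adjusted p = 0.193, and 0.38 with CM, adjusted p = 0.143), and Psmb9 had 0.05 and 0.16. The NK list summed to 3833 to 6679 CPM with PGE2 and 4081 to 5986 CPM with CM, against 5384 to 8528 CPM untreated; its part in these values was not tested.

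In unstimulated EP2KO cells, PGE2 gave 0 calls by edgeR (4 at an unadjusted p under 0.05, 0 by DESeq2), beside 3.15% of all genes. There 1322 of all 10723 genes had an unadjusted p under 0.05. With the replicate block, which pairs these libraries, Psme3 was called lower (-0.48, adjusted p = 0.0277). CM gave 0 higher, against 2.23%, and 1 (2.17%) lower, against 2.14%: Psme3, with 68.1, 63.9, 59.7 and 38.2 CPM, against 93.8, 86.1, 79.4 and 75.4 CPM. Its groups did not overlap (-0.54, adjusted p = 0.0458), and the call ended in 6 of 8 fits that left out a library. Every PGE2 and every CM library lay below the 158 to 159 CPM of untreated cells for Psmb10, but neither difference was called. The NK list summed to 3456 to 4546 CPM with PGE2 and 2962 to 3688 CPM with CM, against 4124 to 6126 CPM untreated, and the neutrophil list to 147 to 709 CPM and 118 to 877 CPM, against 137 to 667 CPM. The macrophage and dendritic cell list (4 of 8 genes tested) summed to 71.9 to 184 CPM with PGE2 and 79.1 to 222 CPM with CM, against 108 to 159 CPM untreated; the part of these cells was not tested.

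In EP2/EP4KO cells, which lack both receptors where the Cre was active, no member was called with either treatment. In stimulated cells PGE2 gave 0 calls by edgeR (2 at an unadjusted p under 0.05, 0 by DESeq2), beside 0% of all genes, and CM gave 0 (2 at an unadjusted p under 0.05, 0 by DESeq2), beside 0.0746%. Among all 10723 genes, 260 with PGE2 and 723 with CM had an unadjusted p under 0.05. With the replicate block, which pairs these libraries, CM gave 1 call, the 20S assembly chaperone gene Psmg3 (28.5, 18.5 and 12.1 CPM, against 37.2, 33.1 and 37.5 CPM; -0.88, adjusted p = 0.0425). The exons of Psmg3 share 280 bases with Gm26938 on the same strand, so their counts may not be fully separate. Psme3 had 179, 149 and 156 CPM with PGE2 and 152, 137 and 127 CPM with CM, against 181, 173 and 162 CPM untreated. The PGE2 libraries overlapped the untreated ones (-0.09), and the CM libraries lay below them (-0.31), which was not called. Psma4 had 252, 209 and 206 CPM with PGE2, against 206, 199 and 225 CPM. Psmb9 had 72.9, 70.9 and 55.4 CPM with PGE2, against 62.7, 79.4 and 55.2 CPM. In unstimulated EP2/EP4KO cells PGE2 gave 0 calls (0 at an unadjusted p under 0.05, 0 by DESeq2), beside 0% of all genes, and so did CM (0 at an unadjusted p under 0.05, 0 by DESeq2), beside 0%. The counts of all 10723 genes at an unadjusted p under 0.05 were 184 with PGE2 and 485 with CM.

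The difference between genotypes was tested itself, on the response of stimulated cells. Between EP2/EP4KO and WT, the PGE2 responses of 2 members differed (4.35%), both higher in EP2/EP4KO cells, against 2.59% of all genes; 0 differed the other way, against 1.68%. The difference was 0.62 ± 0.16 for Psma4 (adjusted p = 0.0109) and 0.74 ± 0.23 for Psme3 (adjusted p = 0.0421), on the log2 scale. The response itself was 0.08 in EP2/EP4KO and -0.55 in WT cells for Psma4, and -0.09 in EP2/EP4KO and -0.83 in WT cells for Psme3. With no low-count filter neither was called (0.63, adjusted p = 0.265, and 0.75, adjusted p = 0.124). The Psma4 call ended without the first PGE2 library of EP2/EP4KO (0.51, adjusted p = 0.0782), and the Psme3 call in 9 of 14 fits that left out a library (0.60 to 0.82 over all 14). For CM, 0 members differed by edgeR (1 at an unadjusted p under 0.05, 1 by DESeq2), beside 1.21% of all genes. There 1123 of all 10723 genes had an unadjusted p under 0.05.

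Splitting that step by receptor gave no call. Between EP2KO and WT, 0 members differed in the PGE2 response by edgeR (4 at an unadjusted p under 0.05, 0 by DESeq2), beside 0% of all genes, Psma4 having the smallest p (0.49, unadjusted p = 0.00182, adjusted p = 1). For CM the count was 0 (0 at an unadjusted p under 0.05, 0 by DESeq2), beside 0%. Between EP2/EP4KO and EP2KO it was 0 for PGE2 (0 at an unadjusted p under 0.05, 0 by DESeq2), beside 0.951%, and 0 for CM (0 at an unadjusted p under 0.05, 0 by DESeq2), beside 0.345%. Of all 10723 genes, 465 for PGE2 and 266 for CM had an unadjusted p under 0.05 between EP2KO and WT. Between EP2/EP4KO and EP2KO these counts were 911 and 772.

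Genotype without treatment or stimulation made no difference that the test could call. Between EP2KO and WT, 0 of 46 members were called by edgeR (3 at an unadjusted p under 0.05, 0 by DESeq2), beside 0.0653% of all genes, and between EP2/EP4KO and EP2KO 0 (1 at an unadjusted p under 0.05, 0 by DESeq2), beside 0.0560%. Among all 10723 genes, 774 and 568 had an unadjusted p under 0.05 in these comparisons. Neutrophil markers stood higher in EP2KO cells: 6 of 7 listed genes were tested, and they summed to 137 to 667 CPM in unstimulated untreated EP2KO libraries, against 55.7 to 317 CPM in WT ones, and their part in these values was not tested.

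The 3 immunoproteasome genes were also set beside the genes they replace, as the log2 ratio of the summed CPM of Psmb8, Psmb9 and Psmb10 over that of Psmb5, Psmb6 and Psmb7. In WT the ratio was -0.04, -0.35, -0.86 and -0.996 in the stimulated untreated libraries and averaged -0.56 ± 0.44 (SD, n = 4), against 0.39 ± 0.14 (SD, n = 4) in unstimulated ones. It averaged -0.60 ± 0.36 (SD, n = 4) in stimulated and 0.40 ± 0.07 (SD, n = 4) in unstimulated EP2KO libraries, and -0.53 ± 0.21 (SD, n = 3) in stimulated and 0.33 ± 0.14 (SD, n = 3) in unstimulated EP2/EP4KO libraries. The differences were -0.95, -0.99 and -0.86, and in no genotype did a stimulated library reach an unstimulated one. In WT the summed immunoproteasome level was 363, 249, 381 and 388 CPM with stimulation, against 755, 624, 571 and 779 CPM without. The constitutive sum was 373, 318, 691 and 773 CPM with stimulation, against 555, 494, 487 and 533 CPM without. All stimulated libraries were thus below all unstimulated ones in the immunoproteasome sum, while in the constitutive sum the first and the second were below and the third and the fourth above them.

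Among stimulated WT libraries the ratio was 0.34, 0.06, -0.13 and -0.03 with PGE2 and -0.10, 0.03, -0.14 and -0.25 with CM, higher in the mean than untreated by 0.62 and 0.45, with libraries that overlapped, the first untreated one standing at -0.04. Between libraries of the same number the ratio was higher with PGE2 than untreated in 4 of 4 pairs, by 0.38 to 0.96. The immunoproteasome sum was 345, 367, 406 and 433 CPM with PGE2, against 363, 249, 381 and 388 CPM untreated. The constitutive sum was 272, 353, 444 and 442 CPM with PGE2, against 373, 318, 691 and 773 CPM untreated. In the first pair the immunoproteasome sum was thus lower with PGE2, and in the second the constitutive sum was higher. In EP2KO cells the means were higher by 0.42 with PGE2 and 0.34 with CM, and in EP2/EP4KO cells they differed by -0.02 and 0.24. In unstimulated cells of all 3 genotypes the group means stayed between 0.24 and 0.40, whatever the treatment. The ratio describes mRNA, not the make-up of the particle, and no p is given for it. Its sign is not read as more of the one kind of subunit mRNA than of the other.

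**Figure D5:**
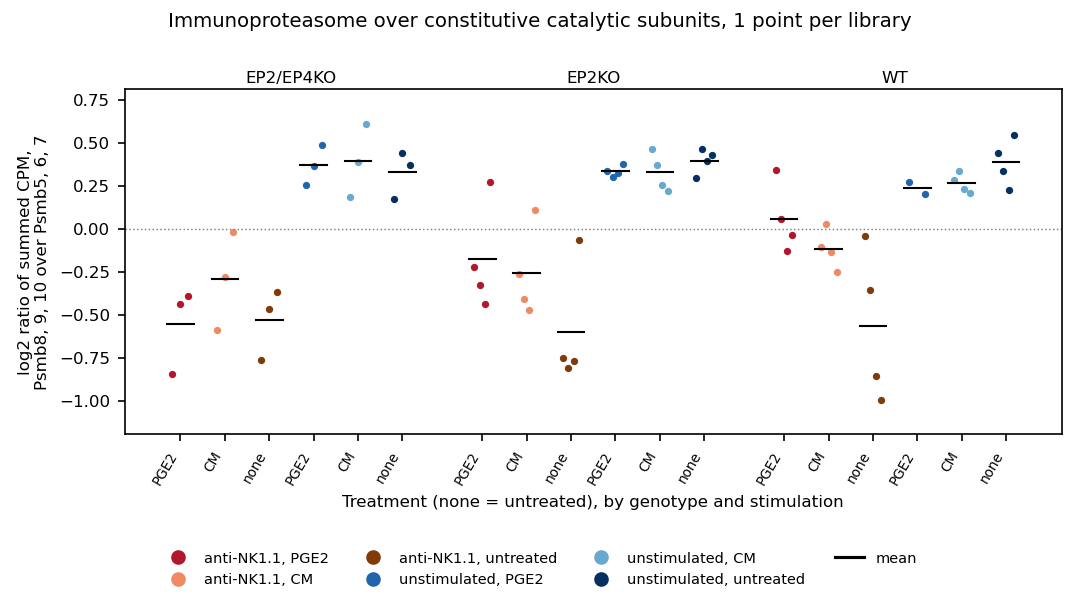
Log2 ratio of summed CPM of Psmb8, Psmb9 and Psmb10 over Psmb5, Psmb6 and Psmb7 in each of the 64 libraries (points) with group means (bars). The dotted line marks equal sums of CPM, which are not read as equal amounts of mRNA. Unstimulated groups average 0.24 to 0.40 in all genotypes, and the 3 stimulated untreated groups average -0.53 (EP2/EP4KO), -0.60 (EP2KO) and -0.56 (WT).

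Genes around the proteasome were read from 4 further lists. Of 7 genes in the transcription of proteasome genes, stimulation of WT cells gave 5 called higher and 1 lower, that of EP2KO cells 4 and 0, and that of EP2/EP4KO cells 3 and 0. Of all genes, 23.0%, 18.4% and 16.4% were called higher and 19.1%, 15.0% and 13.8% lower in these 3 comparisons. Nfe2l1 (chr11:96817414-96829968, minus strand) had 208, 210, 242 and 200 CPM in stimulated WT libraries, against 92.3, 85.3, 87.7 and 83.1 CPM in unstimulated ones. The groups were far apart (1.30 ± 0.13, adjusted p = 3.08e-13), and the rise was 0.94 in EP2KO and 1.20 in EP2/EP4KO cells. Maff, which encodes a small MAF partner of such factors, rose by 1.90 ± 0.34 in WT (adjusted p = 6.92e-06), and Ngly1, the deglycosylase that frees NFE2L1, fell there by 1.03 on the log2 scale. Maff was called higher in EP2KO and EP2/EP4KO cells too, and the fall of Ngly1 was called in neither (-0.43 and -0.55).

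Nfe2l1 fell with treatment in stimulated WT cells, to 143, 141, 130 and 151 CPM with PGE2 and 145, 148, 145 and 140 CPM with CM, against 208, 210, 242 and 200 CPM untreated. No treated library reached an untreated one (-0.60, adjusted p = 0.000172, and -0.57, adjusted p = 0.000377). In EP2KO cells it had -0.36 with PGE2 (adjusted p = 0.0586) and -0.43 with CM (adjusted p = 0.0126, a call that ended in 4 of 8 fits that left out a library), and in EP2/EP4KO cells -0.06 and -0.05. The difference between the PGE2 responses of EP2/EP4KO and WT was 0.55 and missed the threshold (adjusted p = 0.0791).

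Of 9 tested proteasome genes with other names (10 listed), 3 were called higher and 0 lower with stimulation in WT, where 23.0% of all genes were called higher and 19.1% lower: Ecpas (1.03), a scaffold that binds the proteasome, Ube3c (0.80), a ubiquitin ligase of the particle, and Txnl1 (0.53), a thioredoxin of the 19S cap. Pomp, the chaperone that completes core assembly, was not among them (270, 148, 344 and 407 CPM, against 323, 254, 294 and 339 CPM; -0.05, adjusted p = 0.84). Of 14 ubiquitin and shuttle genes, 5 were called higher and 1 lower, beside the same shares of all genes, with Vcp, the segregase that extracts substrates, at 1.15, Zfand5, a proteasome activator, at 1.07 and Ubb, a polyubiquitin gene, at -0.94. Of 10 genes of class I antigen processing and the interferon response, 1 was called higher (Erap1, the peptide-trimming enzyme, 0.76) and 1 lower (H2-D1, a class I heavy chain, -0.69, which ended without the first or the second stimulated library, -0.59 and -0.55). The exons of Erap1 share 834 bases with Cast and those of Vcp 352 bases with 1700022I11Rik, both on the opposite strand. In EP2KO and EP2/EP4KO cells stimulation gave no call for Ecpas (0.48 and 0.45), Ubb (-0.45 and -0.64) or H2-D1 (-0.42 and -0.35). Ube3c, Txnl1, Vcp, Zfand5 and Erap1 were called higher in both. With PGE2 in stimulated WT cells each of the 4 lists had 0 genes called higher, against 6.00% of all genes, and 2 lower, against 9.63%; with CM each had 0 higher, against 6.20%, and 1 lower, against 9.22%.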

How the data were processed

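Each library measured 3′ mRNA ends with unique molecular identifiers. The deposited table holds whole-number counts per gene that the authors did not normalise, as the values show; the labels name GRCm38/mm10 and DESeq2 in the submitters' processing notes, and nothing used here states the aligner, counter, annotation or use of strand. Library totals ran between 753973 and 1693750 counts.

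The members and gene lists were chosen with earlier results of these data known. The 64 libraries were fitted together with edgeR 4.0.16 in R 4.3.3 (limma 3.58.1), with 1 mean per group, TMM scaling, filterByExpr at a minimum count of 10 and robust quasi-likelihood F tests; 10723 genes holding 99.2% of the counts were tested. Standard errors are the absolute log2 fold change divided by the square root of F. Of 28 comparisons, 24 were planned and 4 interactions between genotypes were chosen after seeing the data. The scripts were tested on simulated data. No 2 libraries were identical, and the lowest correlation of a library with the rest of its group was 0.944. Positions come from GENCODE M21.

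Genes named were Psmb5 to Psmb10, Psme1, Psme2 and Pomp, in each stimulation and WT treatment comparison the 4 called members that rose most and the 4 that fell most, up to 3 called members of each interaction, genotype or direct treatment comparison, the ends of each functional class and those nearest the 5 CPM level. These were 30 genes in all, of which Pomp and Psma8 are not members. Others named with a value are called members, or were chosen after their values were seen.

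Replicate numbers were read as pairs where same-numbered libraries deviated together, with every correlation of deviations over 0.1 in at least 3 pairs: stimulation in EP2/EP4KO (0.17 to 0.22), PGE2 in stimulated WT (0.22 to 0.37), PGE2 and CM in stimulated EP2/EP4KO (0.16 to 0.38), and PGE2 in unstimulated EP2KO (0.10 to 0.34) and EP2/EP4KO (0.16 to 0.33). Alternatives were DESeq2 1.42.0, its size factors (RLE) in edgeR, no filter beyond 1 count, a replicate block and leaving out each library.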

Additional observations from a re-analysis of the deposited data

Results flagged for a closer look

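A library was picked out where its gap to the nearest of the 4 libraries of its group, divided by the range of the group, exceeded Dixon's critical value for groups of 4. Of 341 sets examined, each of them 1 measure in 1 group of 4 libraries, 21 held such a library, and chance gives about 1 in 20. The sets come from the same libraries and are not independent. The fourth stimulated untreated EP2KO library stood out in 4 measures: Psmb9 had 115.8 CPM (the others 59.43 to 59.78 CPM), Psmf1 28.75 CPM (19.93 to 20.84), Psmg1 31.86 CPM (15.04 to 17.33) and the log2 ratio of immunoproteasome to constitutive genes -0.06111 (-0.8078 to -0.7513). The first unstimulated EP2KO library with PGE2 stood out in 3 genes: Pomp had 215.1 CPM (280.8 to 289.7), Psmb7 103.2 CPM (138.1 to 142.3) and Psme4 122.2 CPM (83.46 to 87.88).

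In other EP2KO libraries, Psmd12 had 133.6 CPM (190.1 to 193.3) and Psmd2 183.0 CPM (158.0 to 159.3) in the fourth stimulated library with PGE2, and Psmd11 had 106.0 CPM (114.2 to 115.4) and Psmd12 107.9 CPM (116.1 to 116.7) in the fourth unstimulated one. With CM, Psmd11 had 172.3 CPM (136.9 to 142.5) in the first stimulated library and Psmb6 304.5 CPM (250.7 to 258.1) in the third. Without stimulation and with CM, Psmd13 had 88.85 CPM (76.37 to 78.21) in the third library, and Psme2 175.5 CPM (144.4 to 148.8) and Psmg2 32.43 CPM (39.92 to 40.52) in the fourth. Among untreated unstimulated EP2KO libraries, Psmf1 had 40.91 CPM (23.47 to 25.75) in the third and Psmb4 220.3 CPM (183.7 to 189.9) in the fourth.

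In WT, Psmd1 had 165.4 CPM (111.3 to 116.9) in the first stimulated library with PGE2. Psmd12 had 283.5 CPM (190.6 to 192.7) in the fourth stimulated untreated library and 119.1 CPM (141.2 to 143.9) in the third unstimulated untreated one.

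The PGE2 responses of stimulated EP2/EP4KO and WT cells differed, by the interaction test of edgeR, for Psma4 (log2 difference 0.6244) and Psme3 (0.7402). Neither difference was called with no low-count filter.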

How the results depend on the processing

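The 148 called fold changes of members and listed genes kept their sign under every alternative run. Their call was kept in 145 cases by DESeq2, 146 with RLE scaling, 148 with the replicate block and 92 with no low-count filter, and in 865 of the fits that left out a library, against 265 in which it ended. With no filter beyond 1 count, members called numbered 11 for stimulation in EP2/EP4KO, 4 for CM in stimulated WT, 0 for PGE2 and 1 for CM in stimulated EP2KO, 0 for PGE2 in unstimulated WT, 0 for CM in unstimulated EP2KO, and 0 for the EP2/EP4KO against WT difference in the PGE2 response. DESeq2 called 8 with CM in unstimulated WT, 3 in the CM by stimulation interaction in WT and 1 in the EP2/EP4KO against WT difference in the CM response.

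With the replicate block, 19 members were called for PGE2 in stimulated WT, 5 for PGE2 and 5 for CM in stimulated EP2KO, 1 for CM in stimulated EP2/EP4KO, 4 for PGE2 and 17 for CM in unstimulated WT, 1 for PGE2 and 2 for CM in unstimulated EP2KO, and 2 (Psmb8 and Psmb9) for PGE2 and 3 (Psmb8, Psmb9 and Psmb10) for CM in the interactions with stimulation in WT; the block ended no call. Where the numbers were not read as pairs, 4 of 8 libraries (stimulation in WT) to 6 of 8 correlated best with their own number, and 0 of 8 and 1 of 6 between genotypes.

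Leaving out 1 library gave 16 to 19 called members for stimulation of WT cells, 15 to 19 for that of EP2KO and 13 to 16 for that of EP2/EP4KO cells; 5 to 17 for PGE2 and 2 to 8 for CM in stimulated WT; 0 to 2 and 1 to 5 in stimulated EP2KO; 0 to 3 and 3 to 7 in unstimulated WT; 0 to 1 for CM in unstimulated EP2KO; 0 to 2 for the CM by stimulation interaction in WT; and 0 to 4 for the EP2/EP4KO against WT difference in the PGE2 response. The other comparisons stayed at 0. The ratio difference with stimulation in WT, -0.95, was -1.02 as a mean of pairwise ratios and -1.12 to -0.81 without 1 library. The cause of these shifts was not tested. The lowest genes, Psmg1 and Psmf1, are limited most by depth.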

Other observations

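The 3 exchanges of catalytic subunits were also read one pair at a time, as the difference in mean log2 ratio of the immunoproteasome gene over the gene it replaces, without a test. With stimulation the ratio of Psmb8 to Psmb5 changed by -1.26 in WT, -1.14 in EP2KO and -1.18 in EP2/EP4KO cells. That of Psmb9 to Psmb6 changed by -1.12 in WT cells, -0.80 in EP2KO cells and -1.08 in EP2/EP4KO cells. That of Psmb10 to Psmb7 changed by -0.69, -1.01 and -0.56 in the same order of genotypes. With PGE2 in stimulated WT cells the differences were 0.69 for Psmb8 over Psmb5, 0.83 for Psmb9 over Psmb6 and 0.54 for Psmb10 over Psmb7. There the log2 fold changes of Psmb8, Psmb9 and Psmb10 themselves were 0.22, 0.56 and -0.17. Those of Psmb5, Psmb6 and Psmb7 were -0.57, -0.36 and -0.74.

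Shuttle factors that bring substrates to the proteasome rose with stimulation of untreated WT cells by edgeR's quasi-likelihood test: Rad23b by 0.84 and Ubqln1 by 0.83 on the log2 scale. The small MAF genes Mafk and Mafg rose by 0.70 and 0.62, and Ddi2, the protease that cleaves NFE2L1, by 0.51. The last 3 are uncertain, since exons of Ddi2 share 1749 bases with Rsc1a1 and those of Mafg 124 with Sirt7 on the same strand, and those of Mafk 169 with Tmem184a on the opposite strand. Rad23b, Ubqln1 and Mafk were also called higher in EP2KO and EP2/EP4KO cells. Mafg was called in EP2KO (0.62) and not in EP2/EP4KO cells (0.30), and Ddi2 in neither (0.02 and 0.37).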
